A study of Homo sapiens with 2 samples.

Results

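The short arm of chromosome 5 was described gene by gene in 2 lung cancer cell lines, H2087 and H596. A gene was taken as a member when it had a curated RefSeq mRNA (an NM_ transcript) that started on chromosome 5 before 46.4 Mb from the tip in the hg19 build. SLC1A3 and genes with symbols that start with NDUF, SDH, MRP or DNAJ were left out. The rule found 130 members among 136 such genes, out of 27685 genes listed for the whole series, and 718 genes with an NM_ transcript lay on the rest of the chromosome. The region was chosen by the difference between the 2 libraries along chromosome 5, so the differences given here are a description of that choice and were put to no test.

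RNA was measured by sequencing of poly(A)-selected, stranded libraries of untreated cells, 1 library per cell line. The labels call both H2087 and H596 lung adenocarcinoma cells, and both were grown in RPMI medium with fetal bovine serum. The libraries held 46961500 (H2087) and 55387847 (H596) estimated counts. With 1 library per cell line there was no replicate check, no p-value could be computed, and a difference between the cell lines cannot be told apart from a difference between these cultures or libraries.

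The marker genes of the 2 lines did not match the shared label equally well. Among 5 lung adenocarcinoma markers, 3 reached an FPKM (fragments scaled to transcript length and library size) of 1 in H2087 and 1 did so in H596. NKX2-1, the lineage factor of lung epithelium, was at 110 FPKM in H2087 and 0.508 in H596, while KRT7 was at 791 and 608. Of 5 squamous markers, 1 reached 1 FPKM in H2087 and 5 in H596, with summed levels of 1.66 and 250, and TP63 was at 0.183 and 55.2. All 4 epithelial markers exceeded 1 FPKM in both lines, and of 4 leukocyte markers 1 did so in each line, CD68 at 128 and 25.6 FPKM, while PTPRC and CD3E had 0 counts in both. The part of these marker differences in the results for the short arm was not tested.

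The short arm of chromosome 5 is one of the arms most often gained in lung cancers, and it carries the catalytic subunit of telomerase, TERT, near its tip. Besides TERT it holds genes for cell cycle control, protein synthesis, Golgi traffic and cytokine receptors, a group of neural cadherins in a gene-poor stretch, and a cluster of late complement components. DNA copy number was not analysed here, and in RNA from a whole culture, fewer cells that use a gene and less RNA per cell cannot be told apart.

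The promoters of 6 members with large differences are shown first, as examples of the range in base composition among them. Each run is the 250 bases before the start of the member's leading transcript in GRCh37 (hg19), read 5′ to 3′ on the strand of the gene, with CpG dinucleotides in capitals. Windows that overlap an annotated UTR were not printed. SEMA5A lies at chr5:9546234-9546483 on the minus strand, FAM105A at chr5:14581641-14581890 on the plus strand, FYB at chr5:39219709-39219958 on the minus strand and CARD6 at chr5:40841160-40841409 on the plus strand. These 4 genes were higher in H596. LPCAT1 lies at chr5:1524093-1524342 and SELENOP at chr5:42812179-42812428, both on the minus strand, and both genes were higher in H2087.
SEMA5A: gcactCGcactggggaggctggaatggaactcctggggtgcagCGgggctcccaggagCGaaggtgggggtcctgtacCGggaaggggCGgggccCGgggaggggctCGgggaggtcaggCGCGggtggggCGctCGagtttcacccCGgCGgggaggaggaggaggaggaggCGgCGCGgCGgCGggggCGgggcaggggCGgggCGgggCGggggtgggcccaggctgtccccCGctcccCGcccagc
FAM105A: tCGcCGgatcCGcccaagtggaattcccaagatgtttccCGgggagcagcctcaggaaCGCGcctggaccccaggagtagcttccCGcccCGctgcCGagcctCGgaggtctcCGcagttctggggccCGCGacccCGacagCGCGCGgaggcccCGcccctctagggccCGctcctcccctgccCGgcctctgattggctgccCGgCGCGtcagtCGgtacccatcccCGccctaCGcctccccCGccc
FYB: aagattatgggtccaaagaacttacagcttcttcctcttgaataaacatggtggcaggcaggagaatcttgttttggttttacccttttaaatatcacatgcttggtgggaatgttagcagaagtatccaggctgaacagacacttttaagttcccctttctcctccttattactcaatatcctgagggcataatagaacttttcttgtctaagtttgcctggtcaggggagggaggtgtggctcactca
CARD6: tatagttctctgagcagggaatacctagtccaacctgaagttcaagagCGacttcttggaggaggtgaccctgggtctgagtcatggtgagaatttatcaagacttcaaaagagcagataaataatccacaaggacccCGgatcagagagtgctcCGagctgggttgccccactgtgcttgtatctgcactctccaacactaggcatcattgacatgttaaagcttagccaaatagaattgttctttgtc
LPCAT1: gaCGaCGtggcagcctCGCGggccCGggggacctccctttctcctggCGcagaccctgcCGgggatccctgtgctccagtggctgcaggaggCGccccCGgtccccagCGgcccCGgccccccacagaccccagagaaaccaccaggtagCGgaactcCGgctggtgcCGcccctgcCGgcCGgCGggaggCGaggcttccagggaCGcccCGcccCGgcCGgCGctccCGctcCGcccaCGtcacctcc
SELENOP: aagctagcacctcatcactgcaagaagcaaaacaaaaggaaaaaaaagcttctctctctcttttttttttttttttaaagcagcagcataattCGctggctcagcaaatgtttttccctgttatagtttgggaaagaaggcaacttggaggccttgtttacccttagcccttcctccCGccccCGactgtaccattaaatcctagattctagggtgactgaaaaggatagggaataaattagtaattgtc

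Among the genes higher in H596, the windows of SEMA5A and FAM105A held 24 and 27 CpG dinucleotides, whereas that of FYB held 0 and that of CARD6 held 3. Among the genes higher in H2087, LPCAT1 had 26 and SELENOP had 3. Both compositions were thus present on each side of the comparison. The window of SEMA5A runs across the start of SNHG18, a noncoding RNA on the opposite strand that starts at position 9546312. Strands for these windows came from the RefSeq promoter table, which matched 115 of the 130 members and 751 genes of chromosome 5 in all. Of these 751 windows, 554 (73.8%) shared at least 100 bases in a row with the RefSeq promoter of the gene. The windows of FYB and SELENOP did not, and that of FYB lies inside the gene, whose listed span reaches position 39270759.

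CpG content differed between used and unused members. The median was 20 CpG dinucleotides over the 115 windows, 24 over the 73 with a mean level of at least 1 FPKM, and 7.5 over the 28 with at most 3 counts in both lines. At least 10 CpG dinucleotides were found in 84.9% of the first group and 35.7% of the second. On the rest of chromosome 5 the corresponding medians were 19 and 4, so expressed genes had the richer windows there as well. A gene with 0 counts has no leading transcript, and the NM_ transcript with the first identifier was then used. The windows of FBXL7 and CDH12, for example, lie inside those genes. The part of this choice in the lower CpG counts of unused genes was not tested. The GC box GGGCGG, searched on both strands, was in 53.0% of the members' windows and in 50.2% of all chromosome 5 windows. The letters TATAAA were in 3.48% and 7.99%, and CCAAT in 31.3% and 31.4%. The AP-1 letters TGANTCA were in 2.61% and 4.13%, and the E box CACGTG in 7.83% and 6.92%. A match to such letters is a description of the sequence and not of a bound factor.

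**Figure D1:**
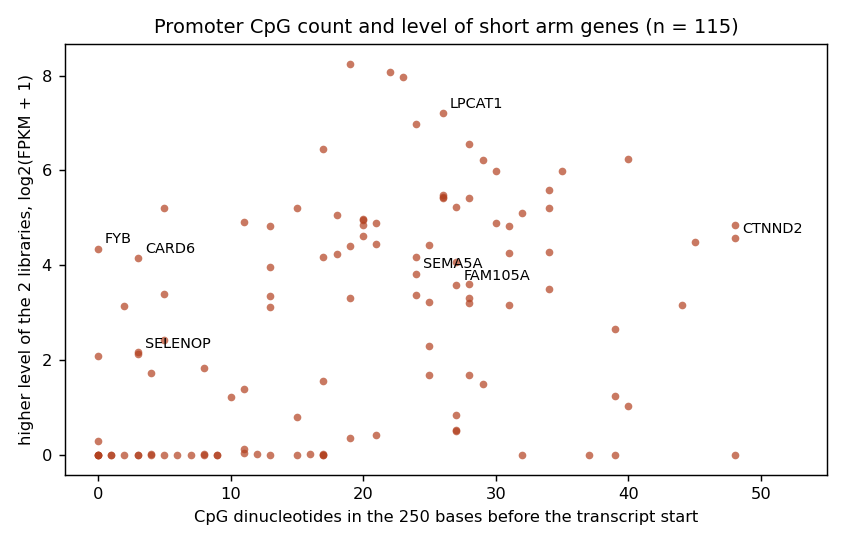
Number of CpG dinucleotides in the 250 bases before the transcript start (x axis) against the higher of the 2 levels on the log2(FPKM + 1) scale (y axis), with 1 point for each of 115 short arm genes. Most unused genes gather at the lower left, while FYB, with 0 CpG dinucleotides, and CTNND2 stand at opposite ends of the x axis.

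Of the 130 members, 83 (63.8%) had a mean of at least 1 FPKM over the 2 libraries and are called expressed here, 30 had at most 3 counts in both libraries, and 17 lay between. The difference was computed as log2(FPKM + 1), H596 minus H2087, a scale that understates the differences of low genes. Its median over the 83 expressed members was 0.64, against 0.12 over all 13048 expressed genes of the genome. The medians of the members' own lower and upper limits, from 95% limits of the counts, were 0.52 and 0.71. These are not an interval of the median. The level was higher in H596 for 58 of the 83 members (69.9%) and lower for 25, and the median FPKM was 10.7 in H2087 and 18.8 in H596.

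At least 2-fold higher levels in H596 were found for 33 of 83 expressed members (39.8%), beside 18.2% of all expressed genes. At least 2-fold lower levels were found for 7 (8.43%), beside 14.2% of all expressed genes. The other 43 members lay within 2-fold on the log2(FPKM + 1) scale, which all 2-fold counts here use. Among them NKD2, at 1.39 and 0.666 FPKM, was 2.08-fold higher in H2087 by FPKM alone. Because this contrast chose the region, nothing beyond these shares can be read from them. A member that is high in 1 line can pass the mean of 1 FPKM through that line alone. This was the case for 11 expressed members with an FPKM under 1 in H2087 and 5 with an FPKM under 1 in H596. With both libraries required to reach 1 FPKM, the median was 0.43 over 67 members, and 22 were at least 2-fold higher in H596 and 4 lower. Of all genes under the same requirement, 14.8% were higher and 10.4% lower by that much.

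The rest of chromosome 5 leaned the other way. Its 441 expressed genes had a median difference of −0.68, with 101 higher (22.9%) and 340 lower in H596. At least 2-fold higher levels were found for 32 (7.26%) and lower levels for 147 (33.3%). The gap between the medians of the short arm and of the rest was 1.32. Computed from medians of the genes' counting limits, it was 1.11 at the lower end and 1.52 at the upper. Read in counts, the members took 0.867% of the H2087 library and 1.04% of the H596 library, while the rest of the chromosome took 5.12% and 2.83%. Across 23 chromosomes the median difference ranged from −0.58, for the whole of chromosome 5, to 0.86.

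**Figure D2:**
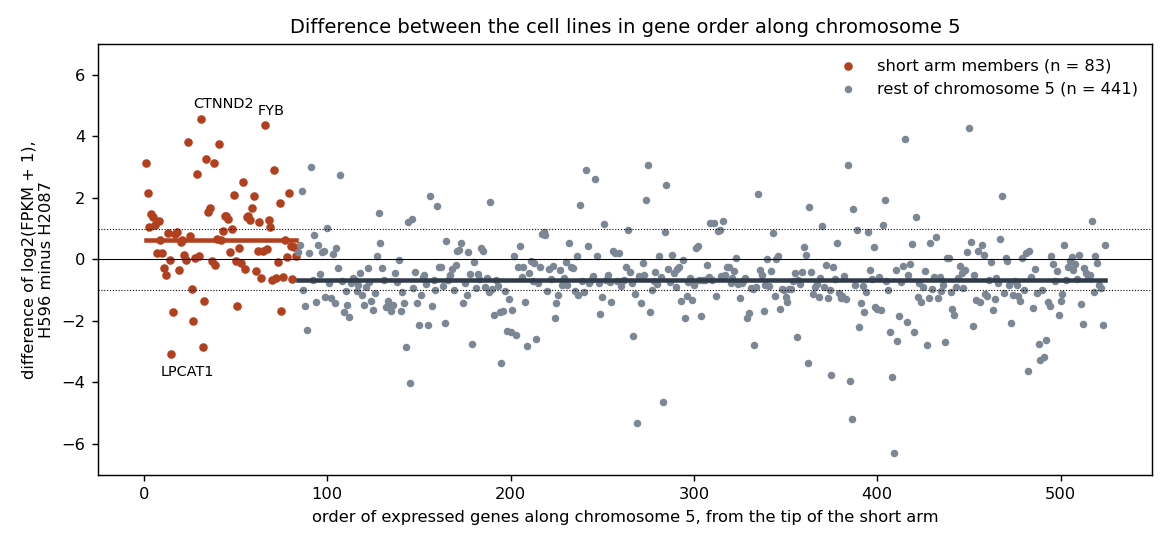
Difference between the lines in log2(FPKM + 1), H596 minus H2087 (y axis), for the 83 expressed short arm genes and the 441 expressed genes of the rest of chromosome 5 in their order along the chromosome (x axis), with 1 point per gene. Thick lines mark the medians of 0.64 and −0.68, and dotted lines mark a 2-fold difference.

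**Figure D3:**
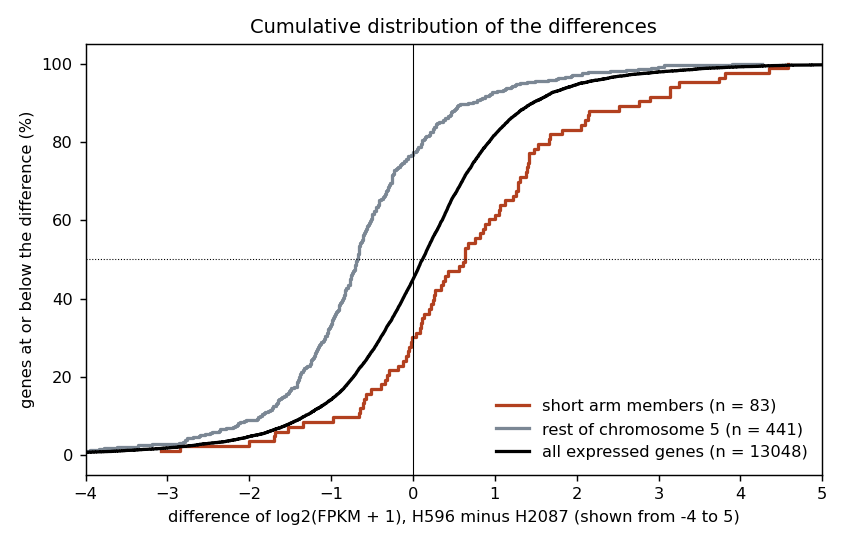
Share of genes at or below each difference (y axis, percent) against that difference on the log2(FPKM + 1) scale, with H2087 subtracted from H596 (x axis), for the short arm, the rest of chromosome 5 and all 13048 expressed genes. The short arm curve lies to the right of that of all genes over most of its range, and the curve of the rest of chromosome 5 lies to the left.

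Read in 10 Mb steps from the tip, the short arm had a median difference above 0 in every step that held expressed genes. The median difference was 0.63 from 0 to 10 Mb (24 expressed genes), 0.39 from 10 to 20 Mb (16 genes), 1.11 from 30 to 40 Mb (26 genes) and 0.34 from 40 Mb to the limit at 46.4 Mb (17 genes). The stretch from 20 to 30 Mb, where 4 members lie, had 0 expressed genes. The segment from 30 to 40 Mb stood highest, with 14 of 26 genes at least 2-fold higher in H596 and 1 lower. Among all expressed genes the shares were 18.2% and 14.2%. On the other side of the limit, all 14 steps with at least 5 expressed genes had medians below 0, from −1.30 to −0.31.

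The 83 expressed members fell into 35 runs of neighbors with 1 direction. Since 58 of the 83 were higher in H596, and this contrast chose the region, long runs of higher members may arise in any order. Their lengths were not tested. From PLEKHG4B to BRD9, at the tip, 10 expressed members in a row were higher in H596 (median 1.19), and from BASP1 to AMACR another 10 were (median 1.15). Shorter runs of 5 went from LMBRD2 to C5orf42 (median 1.42) and from RICTOR to PRKAA1 (median 1.06). The longest run of lower members had 3 genes, from CLPTM1L to C5orf38, with LPCAT1 between them (median −1.70). The ratio interval of CLPTM1L included 1.

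The position limit lies at the edge of the centromere. Among the members nearest to it inside were NNT, at 28.0 FPKM in H2087 and 30.1 in H596, and FGF10, at 0 counts in both lines. The first genes outside it were EMB, at 20.8 FPKM in H2087 and higher by 0.26 on the log2 scale in H596, PARP8, at 7.03 and 10.1, and ISL1, with 0 counts in H2087 and 570 in H596. MRPS30, which the symbol rule left out, lies closer to the limit than NNT and was lower in H596, at 56.1 and 27.9 FPKM. The expressed genes next to the limit therefore shared no direction on its inner side.

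CTNND2, which encodes the neural armadillo protein delta-catenin that binds cadherin tails, showed the largest difference of all expressed members. It had 0 counts in H2087 and 7013 in H596 (22.9 FPKM), at least 1982-fold higher when the count of 0 is set to the 3 counts that it allows. FYB, an adaptor of T cell receptor and integrin signaling better known from leukocytes, had 0 counts in H2087 and 5348 in H596 (19.4 FPKM), at least 1511-fold higher. CDH6, a cadherin of the developing kidney and nervous system, had 0 counts and 6019 counts (12.4 FPKM), at least 1701-fold higher. These 3 members were the ones with at least 10 FPKM in 1 line and at most 3 counts in the other. Among the leukocyte markers, PTPRC and CD3E had 0 counts in H596, and CD68, a lysosomal protein also made outside leukocytes, was at 128 FPKM in H2087 and 25.6 in H596. The part of such cells in the level of FYB was not tested.

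SEMA5A, a semaphorin that guides axons, was close to this pattern, with 4 counts in H2087 and 8845 in H596. Its FPKM of 0.00707 and 13.2 gave a ratio of 1868, with an exact interval from 729 to 6856 that covers counting error only. PLEKHG4B, a guanine nucleotide exchange factor at the tip of the arm, was at 0.0155 and 7.97 FPKM. RETREG1, a receptor for the autophagy of endoplasmic reticulum, was at 0.0572 and 8.28 FPKM. These genes were near the limit of detection in H2087 and at a moderate level in H596.

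FAM105A lies beside its relative OTULIN, the deubiquitinase of linear ubiquitin chains. FAM105A was at 0.256 FPKM in H2087 and 11.0 in H596, 42.9-fold higher (34.7 to 53.6), and OTULIN was at 4.81 and 15.8, 3.29-fold higher (3.12 to 3.46). Both neighbors were thus higher in H596, by very different amounts. CARD6, a protein with a caspase recruitment domain, was at 1.38 and 16.8 FPKM, 12.1-fold higher (10.7 to 13.8). ANKRD33B was at 0.526 and 9.36 FPKM, and SPEF2, a protein of the sperm tail and of motile cilia, at 0.797 and 9.26.

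The largest difference in the other direction on the log2(FPKM + 1) scale was that of LPCAT1, the acyltransferase that makes the saturated phosphatidylcholine of lung surfactant. It was at 147 FPKM in H2087 and 16.5 in H596, 8.90-fold higher in H2087 (8.60 to 9.21). DNAH5, the outer dynein arm heavy chain of motile cilia, was at 7.90 and 0.236 FPKM, 33.5-fold higher in H2087 (29.2 to 38.7). CMBL, a cytosolic hydrolase, was at 19.3 and 4.05 FPKM, 4.76-fold higher (4.43 to 5.12). LPCAT1 and CMBL remained above 1 FPKM in H596, whereas DNAH5 did not.

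C5orf38 had 98 counts in H2087 (2.25 FPKM) and 0 in H596, at least 38.5-fold lower there. Its head-to-head neighbor IRX2, an Iroquois homeobox factor, had 102 and 0 counts, and IRX4 of the same cluster had 49 and 0. All 3 genes were thus listed at 0 in H596. SELENOP, the selenium carrier of plasma, was at 3.41 and 0.377 FPKM, 9.05-fold higher in H2087 (6.69 to 12.5), and it overlaps CCDC152, which had at most 3 counts in both lines. RAI14, an actin-binding ankyrin repeat protein, was at 28.7 and 9.30 FPKM. TRIO, a guanine nucleotide exchange factor for small GTPases, was at 27.8 and 10.3.

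**Figure D4:**
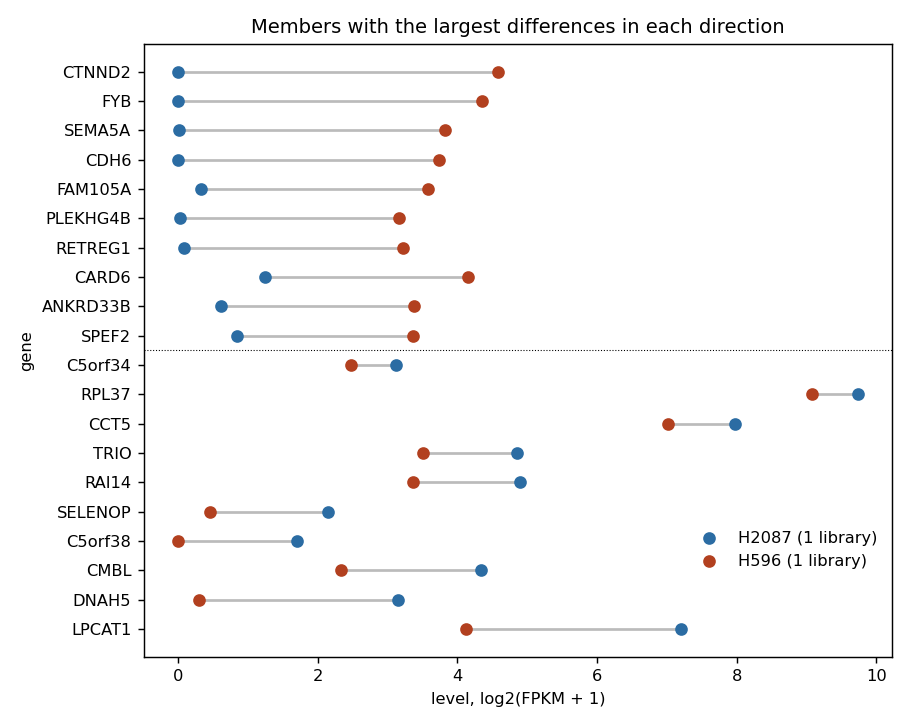
Levels on the log2(FPKM + 1) scale (x axis) in H2087 and H596, with 1 point per library, for the 10 expressed short arm genes with the largest differences in each direction. The upper 10, led by CTNND2, lie between 0 FPKM and the 1.38 FPKM of CARD6 in H2087, while RPL37 and CCT5 among the lower 10 are high in both lines.

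For this and the following role lists, the shares over all expressed genes are 18.2% at least 2-fold higher in H596 and 14.2% lower. The lists are small, and their counts were put to no test. Cell cycle, telomere and DNA repair genes were 8 members, of which 7 were expressed, 3 were at least 2-fold higher in H596 and 0 lower, with a median difference of 0.37. TERT was the member outside the expressed set. It had 355 counts in H2087 (1.84 FPKM) and 0 in H596, at least 140-fold lower there. SKP2, the F-box protein that targets the cell cycle inhibitor p27 for degradation, was at 15.8 FPKM in H2087 and 43.8 in H596, 2.78-fold higher (2.65 to 2.92). NIPBL, which loads cohesin onto chromosomes, was at 10.7 and 36.3 FPKM, 3.38-fold higher (3.28 to 3.49). FBXO4, another F-box protein, was at 5.05 and 20.4. TRIP13, an ATPase of the spindle checkpoint, was lower in H596 at 36.1 and 29.2 FPKM, as was C5orf34 at 7.69 and 4.56. RAD1, a subunit of the DNA damage clamp, was at 16.0 and 20.9, and the centrosomal CEP72 at 7.07 and 8.38. The NM_ transcript of RAD1, NM_002853, went the other way, with 2705 counts in H2087 and 1854 in H596. The whole gene had 3565 and 5441 counts, so its higher level in H596 was not seen in that transcript. The genes of division were thus spread from lower to higher levels, and TERT was the one listed at 0 in H596.

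RNA processing and translation held 12 members, all expressed, with 2 at least 2-fold higher in H596, 0 lower and a median difference of 0.19. They include the most abundant member in both lines. RPL37, a protein of the large ribosomal subunit with many processed copies elsewhere in the genome, was at 856 FPKM in H2087 and 542 in H596. TARS, the threonyl-tRNA synthetase, was at 151 and 304, 2.01-fold higher in H596 (1.98 to 2.04). Its leading NM_ transcript, NM_152295, held 7585 of the gene's 20146 counts in H2087 and 12630 of 48703 in H596. At 55.2 and 77.7 FPKM that transcript was within 2-fold, so the 2-fold call for TARS rests on the whole gene. CCT5, a subunit of the chaperonin that folds actin and tubulin, was at 252 and 128, 1.97-fold higher in H2087 (lower limit 1.94). These 3 abundant members therefore did not share a direction. ZFR, a zinc finger RNA-binding protein, was at 24.7 and 62.4 FPKM, and DROSHA, the nuclease that starts microRNA processing, at 26.8 and 42.3. PAIP1 (47.6 and 62.6 FPKM), SUB1 (46.3 and 55.1), PAPD7 (12.5 and 19.6) and FASTKD3 (1048 and 1388 counts) were also higher in H596. NSUN2, an RNA methyltransferase, was at 63.1 and 49.4 FPKM, BRIX1, a ribosome assembly factor, at 93.3 and 85.5, and ZNF622 at 32.6 and 31.5. The interval of the ratio for ZNF622 included 1.

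Membrane traffic and ubiquitin ligase genes had 7 of 12 expressed members at least 2-fold higher in H596, 0 lower and a median of 1.16, with 14 members in all. Beside these counts stand 18.2% and 14.2% of all expressed genes. OTULIN, planned for this list under its older symbol FAM105B, was not matched by that symbol and is not in these counts. GOLPH3, a Golgi protein that binds phosphatidylinositol 4-phosphate, was at 46.7 FPKM in H2087 and 126 in H596, 2.69-fold higher (2.61 to 2.77). PDCD6, a calcium-binding adaptor of vesicle transport, was at 129 and 270, 2.09-fold higher (2.03 to 2.15). EXOC3, a subunit of the exocyst, was at 27.4 and 73.2, and MTMR12, a catalytically inactive myotubularin, at 8.13 and 23.4. Together with RETREG1 and FAM105A these are most of the higher members of the group. ZDHHC11B, at 0.501 and 2.58 FPKM, and ZDHHC11, at 2.45 and 4.36, are near-identical palmitoyltransferase copies between which counts may be split. The nuclear pore subunit NUP155 was lower in H596 (35.8 and 27.1), and CLPTM1L was alike in both (74.7 and 73.8, with a ratio interval that included 1). MARCH6, a ubiquitin ligase of the endoplasmic reticulum, was at 27.3 and 28.1, and DAP at 102 and 111. The members at least 2-fold higher were thus not the ubiquitin ligases of the list. MARCH6 was nearly level, and the ligase genes FBXL7 and MARCH11 were not expressed.

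Signaling genes showed both directions. The list of kinase and GTPase signaling genes, which also holds adaptors, had 9 members with 6 expressed. Of these, 3 were at least 2-fold higher in H596 and 1 was lower, with a median of 0.66. PRKAA1 was the only kinase among the 3 higher members. PRKAA1, a catalytic subunit of AMP-activated kinase, was at 15.5 FPKM in H2087 and 33.4 in H596, 2.16-fold higher (2.08 to 2.24). RICTOR, the defining subunit of mTOR complex 2, was at 8.54 and 10.4. Alongside them, FYB and CARD6 were the higher members and TRIO the lower one, and NKD2, an antagonist of Wnt signaling, was at 1.39 and 0.666. DAB2, an endocytic adaptor, had 0 counts in H2087 and 427 in H596 (1.64 FPKM), at least 121-fold higher, although its mean fell short of 1 FPKM. NIM1K stayed at or below 0.286 FPKM in both, and ADCY2 had at most 3 counts.

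Receptors for cytokines, hormones and growth factors were 9 members with 4 expressed, of which 1 was at least 2-fold higher in H596 and 0 lower, with a median of 0.02. LIFR and OSMR, neighboring receptors that pair with gp130, went in opposite directions. LIFR was at 2.82 FPKM in H2087 and 7.93 in H596, 2.81-fold higher (2.65 to 2.99), while OSMR was at 36.0 and 23.5, 1.53-fold higher in H2087 (1.48 to 1.58). IL7R, the interleukin 7 receptor chain, was at 3.26 and 2.43, and PTGER4, a prostaglandin E2 receptor, at 1.54 and 2.23. NPR3, the clearance receptor for natriuretic peptides, was at 0.114 and 0.748. The growth hormone and prolactin receptors GHR and PRLR, RXFP3 and TAS2R1 had at most 3 counts in both lines.

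The list of secreted ligands and inhibitors held 6 members, with the membrane-bound SEMA5A among them. Of these, 3 were expressed, 2 of them at least 2-fold higher in H596. CCL28, a chemokine of mucosal epithelium, was at 1.36 FPKM in H2087 and 9.53 in H596, a ratio with an interval from 6.03 to 8.16, and SEMA5A was the other. C1QTNF3, whose transcripts overlap a readthrough gene with AMACR, was at 3.52 and 3.35 with a ratio interval that included 1. Its NM_ transcripts held little of the gene's 722 and 813 counts. NM_181435 had 8 counts in H2087 and 1 in H596, and NM_030945 had 0 in both. GDNF, FGF10 and EGFLAM had at most 3 counts in both. The late complement genes C6, C7 and C9 were likewise without signal, so SELENOP was the one expressed gene among 4 complement and plasma proteins. Of the proteases ADAMTS12 and ADAMTS16, neither was expressed, at 0.019 and 0.00785 FPKM and at 0.271 and 0.886 FPKM.

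Of 6 cadherin and catenin genes, 2 were expressed, CTNND2 and CDH6, and both were among the largest differences. CDH10 had 0 counts in H2087 and 242 in H596 (1.33 FPKM), at least 68.4-fold higher, and CDH18 had 15 and 71 counts. CDH9 and CDH12 had at most 3 counts in both lines. The genes of this group with any signal were therefore higher in H596 in each case.

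Transporters and channels had 3 expressed genes of 8, all higher in H596, 2 of them at least 2-fold. ANKH, which exports ATP and pyrophosphate, was at 6.08 FPKM in H2087 and 21.4 in H596, 3.52-fold higher (3.37 to 3.68). SLC9A3, the sodium-proton exchanger NHE3, was at 1.89 and 5.30, and SLC12A7, a potassium-chloride cotransporter, at 22.8 and 42.1. The amino acid carriers SLC6A18 and SLC6A19 and SLC45A2 had at most 3 counts in both, and the dopamine transporter SLC6A3 had 11 and 4.

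Metabolic enzymes were divided, with 9 of 12 members expressed, 2 at least 2-fold higher in H596, 2 lower and a median of 0.09. AMACR, the racemase of branched-chain fatty acid oxidation, was at 3.40 FPKM in H2087 and 17.9 in H596, 5.25-fold higher (4.79 to 5.76). NADK2, the mitochondrial NAD kinase, was at 6.98 and 18.4, 2.63-fold higher (2.47 to 2.81). LPCAT1 and CMBL were the lower ones. OXCT1, which uses ketone bodies, was at 29.2 and 18.8, whereas SRD5A1, a steroid reductase, was at 13.7 and 20.7. HMGCS1 of sterol synthesis (26.9 and 28.6), NNT of mitochondrial NADPH supply (28.0 and 30.1) and MTRR of methionine synthesis (20.3 and 20.1), were nearly level. AGXT2, UGT3A1 and UGT3A2 had at most 3 counts in both.

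Transcription and chromatin genes had 5 of 9 members expressed, all higher in H596, 1 of them at least 2-fold, with a median of 0.82. MED10, a Mediator subunit, was at 22.2 FPKM in H2087 and 41.6 in H596, and ICE1, a scaffold of the little elongation complex, at 9.30 and 17.2. BRD9, a bromodomain subunit of a SWI/SNF complex, was at 24.1 and 27.6, and ZNF131 at 17.2 and 27.4. AHRR, the repressor of the aryl hydrocarbon receptor, was at 0.196 and 2.33 FPKM, and its locus overlaps that of PDCD6. IRX1 and PRDM9, the meiotic recombination methyltransferase, had at most 3 counts in both lines.

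The cytoskeleton and cilia list had 5 of 8 members expressed, 1 at least 2-fold higher, 2 lower and a median of −0.18. Its ciliary genes were opposed, since DNAH5 was higher in H2087 and SPEF2 in H596. MYO10, the motor of filopodia, was at 18.1 FPKM in H2087 and 15.9 in H596, and BASP1, a membrane-associated phosphoprotein of growth cones, at 53.8 and 86.2. TPPP, which promotes tubulin polymerization, was at 0.0881 and 1.06, ROPN1L at 0.419 and 0.398, and CAPSL had at most 3 counts in both.

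The 23 members in no list included 14 expressed ones, with 7 at least 2-fold higher in H596, 1 lower and a median of 1.11. CCDC127, at the tip, was at 9.98 FPKM in H2087 and 47.5 in H596, 4.76-fold higher (4.38 to 5.17). C5orf42, mutated in the ciliopathy Joubert syndrome, was at 1.40 and 8.92, 6.39-fold higher (5.92 to 6.90). LMBRD2 was at 5.84 and 17.0, and TTC33 at 1.02 and 3.92. With PLEKHG4B, ANKRD33B and OTULIN these make up the 7. OTULIN is counted here because its older symbol, planned for the membrane traffic list, found no match. C5orf22 (14.2 and 28.1), FAM173B (3.44 and 6.53), TMEM267 (6.40 and 8.96) and WDR70 (25.2 and 30.6) were higher by less, while C5orf51 (14.5 and 13.6) and ANXA2R (1.94 and 0.980) were lower. PDZD2 had 15 and 939 counts, LRRC14B 0 and 14, PLCXD3 0 and 16, and TTC23L 16 and 32. UBE2QL1, C5orf49, RANBP3L, MROH2B and CCDC152 had at most 3 counts in both.

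FBXL7 and MARCH11, both ubiquitin ligase genes, also had at most 3 counts in both lines. Of the 30 such members, 26 had 0 counts in both libraries. A count of 0 allows up to 3 counts, so their absence holds at this depth only.

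**Figure D5:**
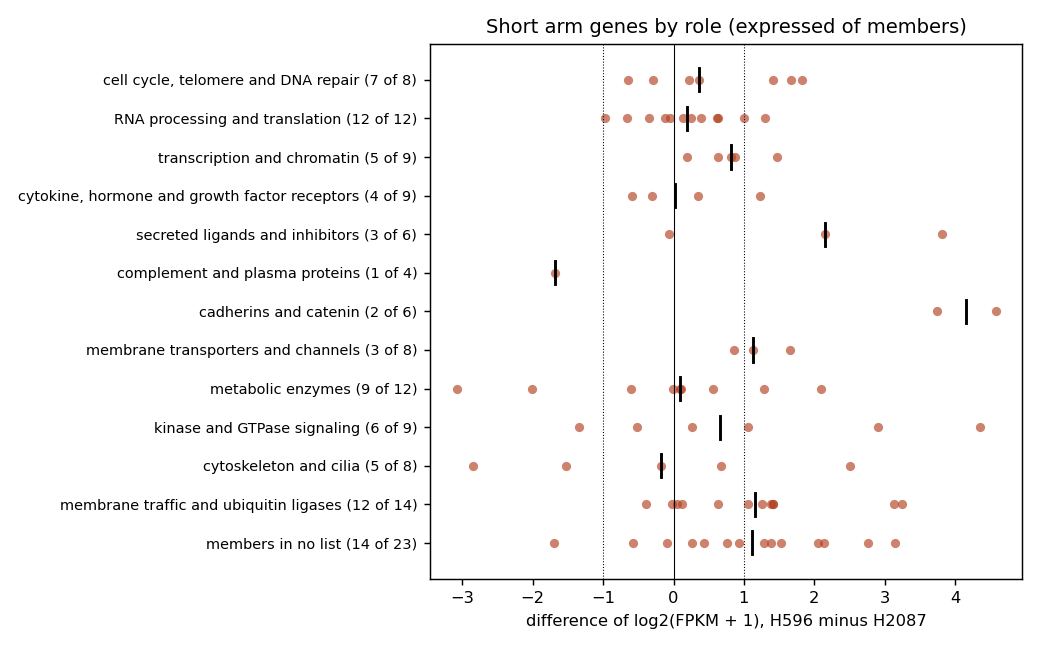
Difference between the lines in log2(FPKM + 1), H596 minus H2087 (x axis), for the expressed short arm genes grouped by role (y axis, with the number expressed of the number of members), with 1 point per gene. Vertical ticks mark group medians, which run from −1.68 for SELENOP alone to 4.16 for the pair CTNND2 and CDH6.

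At 100 FPKM or more there were 6 members in each line. RPL37, CCT5, TARS, PDCD6 and DAP were in both sets, LPCAT1 in that of H2087 and GOLPH3 in that of H596. On the rest of chromosome 5, the number at this level was 35 in H2087 and 15 in H596.

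Counting error was small beside most of these differences. The exact interval of the ratio lay above 1 for 58 expressed members and below 1 for 21, and it included 1 for CLPTM1L, MTRR, ZNF622 and C1QTNF3. Culture and library variation is not part of it. At 30 members the transcripts overlapped another listed gene, among them PDCD6 with AHRR and NSUN2 with SRD5A1. Whether counting used strand is not stated, so reads of such pairs may be shared.

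Shares of transcripts, a measure that the choice of the region did not use, were computed among the NM_ transcripts of each gene only. Among 28 members with at least 2 NM_ transcripts and at least 5 FPKM in both lines, 26 had the same leading transcript. The median shift of its share was 4.09 percentage points, and 0 shifts exceeded 20 points. NIPBL was 1 of 2 exceptions. Its transcript NM_015384 held 55.5% of the gene's FPKM in H2087 and 40.1% in H596, while NM_133433 held 44.5% and 59.9%. In ZNF131, NM_001330706 led in H2087 (20.7%, and 19.8% in H596), and NM_001330707 led in H596 (30.3%, and 11.4% in H2087). Among genes with a shared leading transcript, SKP2 had 65.3% and 83.6% in it and NADK2 75.3% and 90.7%. These shares are model estimates from 1 library each.

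The 6 short arm genes that were left out did not share a direction either. SDHA, a subunit of succinate dehydrogenase, was at 69.2 FPKM in H2087 and 219 in H596, DNAJC21 at 12.2 and 22.8, and the glutamate transporter SLC1A3 had 0 counts in H2087 and 105 FPKM in H596. NDUFS6, of respiratory complex I, was at 231 and 176, and the mitochondrial ribosomal genes MRPL36 and MRPS30 at 72.5 and 69.1 and at 56.1 and 27.9. With these genes included, the short arm median stayed at 0.64 over 89 expressed genes.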

How the data were processed

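RNA was sequenced from 2 libraries, 1 of untreated H2087 and 1 of untreated H596. The authors prepared stranded mRNA libraries and aligned reads to hg19. The submitters' processing notes name bcl2fastq 1.8.4, Trimmomatic, HISAT2 2.0.5 and StringTie 1.3.3b. The authors deposited tables of 27685 genes and 63714 transcripts. The deposited estimated counts of each library are whole numbers and were taken as rounded expected counts; how they were made, and whether strand was used, is not stated. The authors' FPKM scale these by transcript length and library size.

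Members were found by transcript position. The members and gene lists were chosen with earlier results of these data known. Differences of log2(FPKM + 1) were computed where the FPKM averaged at least 1 over both libraries (pseudocount 1), and no test was run. Intervals of ratios are exact 95% Clopper-Pearson limits of the counts (scipy 1.17.1), and a count of 0 was read against 3 counts. Limits beside medians are medians of limits of single genes from Wilson intervals, not intervals of the median. All of these limits cover counting error only. The scripts, in Python 3.11.15, were tested on simulated data. TMM scaling (edgeR 4.0.16, R 4.3.3), TPM, filters, a pseudocount of 0.1, transcript values and other member sets were alternatives. Genes named were those with the 10 largest differences each way, the 5 highest in each library, those with at least 10 FPKM in 1 line and at most 3 counts in the other, the members of the role lists and the genes nearest the position limit. The other members were named after their values were seen, and 1 member, counted in every total, is not reported here by name. Promoter windows were read from GRCh37 with strands from RefSeq, and UTR overlaps from GENCODE.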

Additional observations from a re-analysis of the deposited data

Results flagged for a closer look

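Besides the members, 119 other genes, without an NM_ transcript, were listed on the short arm, and 36 of them had more than 3 counts in a library. These noncoding RNAs, small RNAs and pseudogenes enter no comparison of the report, and 13 reached 5 FPKM in at least 1 line. There are no control samples for them, so the limit that a count of 0 allows is the background.

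SNHG18, head-to-head with SEMA5A, was at 0 FPKM in H2087 and 12.7 in H596, the direction of its neighbor. NIPBL-AS1, beside NIPBL, was at 2.41 and 8.54 FPKM. EXOC3-AS1 was at 5.28 and 14.2, and PP7080 and SLC9A3-AS1, which overlap SLC9A3, at 14.5 and 36.8 and at 10.4 and 23.2. LOC100130744, within ANKH, was at 2.05 and 6.18. Each of these neighbors of a member was higher in H596, as the member was.

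NNT-AS1 was nearly level at 6.68 and 6.27 FPKM. FLJ32255 was at 6.38 in H2087 and 0.0966 in H596, and LOC100506548 at 11.6 and 7.55. The pseudogenes SDHAP3, at 7.06 and 8.59, and GUSBP1, at 20.7 and 15.1, have near-identical copies and are uncertain. The small nucleolar RNAs SNORD141B, at 36.7 and 19.3, and SNORA105B, at 18.3 and 4.52, belong to a class of short RNAs without a poly(A) tail.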

How the results depend on the processing

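Of 64 recomputed values under 14 alternatives, 46 stayed within the limits set for them, 18 moved and 0 reversed. The median difference of the short arm, 0.64, was 0.39 with a mean of at least 10 FPKM, 0.38 without a filter, 0.51 with TMM scaling, 0.52 when centred on all genes, 0.83 in TPM and 0.43 with at least 1 FPKM in both libraries. The members at least 2-fold higher numbered 17 with a mean of at least 10 FPKM, and those lower 4. Those lower were also 4, of 67, with at least 1 FPKM in both, beside 10.4% of all genes so filtered. The gap to the rest of the chromosome was 0.86 without a filter and 1.09 with at least 1 FPKM in both. Members at 100 FPKM in H2087 numbered 11 in TPM, 3 by the highest single transcript, and 10 and 2 at thresholds of 50 and 200. In H596 they numbered 19 in TPM, and 13 and 3 at those thresholds. Under TMM scaling, which set the median of all genes near 0, 30 of 83 members were at least 2-fold higher and 8 lower. The shares of all genes were then 15.7% and 16.3%. The requirement of 1 FPKM in both libraries, and 3 counts in place of 0, were chosen after seeing the data. No paired analysis was possible because H2087 and H596 were each sequenced as 1 library, and no library could be left out.

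The 2 lines were not sequenced in replicate, so spread between cultures is unknown. Members with few counts, such as SEMA5A in H2087 with 4, have wide ratio intervals, and FPKM shares of transcripts depend on the assembly model.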
